A study of Homo sapiens with 4 samples.

Results

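To describe the last step of the differentiation course of hFOB1.19 cells, RNA levels on day 9 were compared with those on day 6. FPKM values, which are fragments scaled to transcript length and to the mapped fragments of the library, were summed over the transcripts of each gene symbol. Symbols with 1 FPKM or more on either day were kept, which gave 12548 of 19610 protein-coding (mRNA) symbols and 2035 of 3214 symbols of long non-coding RNAs (lncRNAs). The difference of a gene is the log2 ratio of day 9 to day 6 after 1 FPKM was added on both days, and a gene is said to have risen or fallen where this ratio reached 1 or -1, a 2-fold difference. Where 4 levels are given for a gene, they belong to days 0, 3, 6 and 9, in that order.

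hFOB1.19 is a human fetal osteoblast line that carries a temperature-sensitive large T antigen of a polyomavirus. It proliferates at the permissive temperature and differentiates when the culture is moved to the higher, restrictive one. From this single line, total RNA of 4 time points was sequenced, with 1 library on each of days 0, 3, 6 and 9. Day 0 was taken before induction at the permissive temperature, and days 3, 6 and 9 during mineralization at the restrictive temperature, so the days 6 and 9 compared here shared their culture temperature. No other agent or genotype separates them by the labels. As no day has a replicate, no test between days was possible, and each value below has no measure of the spread between cultures.

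Osteoblasts first stop dividing, then lay down a matrix rich in type I collagen, and later express genes of mineral deposition. They also secrete cytokines and chemokines, small proteins that recruit leukocytes and act on the osteoclast lineage. Many chemokine and cytokine genes are known targets of NF-kB, a family of transcription factors held in the cytoplasm by IkB proteins until a receptor signal releases them.

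The tables hold FPKM and no counts, so the number of fragments behind each gene's value is unknown. Among 618 transcripts under 0.3 FPKM on both days whose gene has a single transcript, the commonest ratio of day 9 to day 6 was 0.869, met within 0.5% by 114 of them. Read as equal whole fragments on both days, this ratio corresponds to a 1.15 times larger denominator of mapped fragments in the day 9 library. It is no count of the reads sequenced. The mRNA values summed to 545948 FPKM on day 6 and 569922 on day 9. Of 12 osteoblast markers, 9 reached 1 FPKM on day 6 or 9, and SP7, BGLAP and IBSP, a transcription factor and 2 matrix proteins of mature osteoblasts, stayed under it. The summed level of the 12 was 3741 FPKM on day 6 and 3031 on day 9.

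Few mRNA genes passed the 2-fold limit at this step, and most of those that did had risen. Of the 12548 kept genes, 49 rose (0.391%) and 21 fell (0.167%), while 11960 (95.3%) lay within 0.5 of 0 on the log2 scale. The median ratio was 0.01 and its SD over genes 0.27. From day 3 to day 6, a step that shares the day 6 library with this one, 0.619% of 12610 kept genes rose and 0.452% fell. The 15 largest rises with at least 5 FPKM included the chemokine genes CCL3, CXCL8, CXCL6 and CXCL1, the cytokine genes CSF2 and IL6, and SAA1 and SAA2. The 2 largest ratios belonged to clone-named genes. The falls were led by TMEM55A, ANKRD18B and COG6, and rested mostly on transcripts listed at 0 in the day 9 library.

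**Figure D1:**
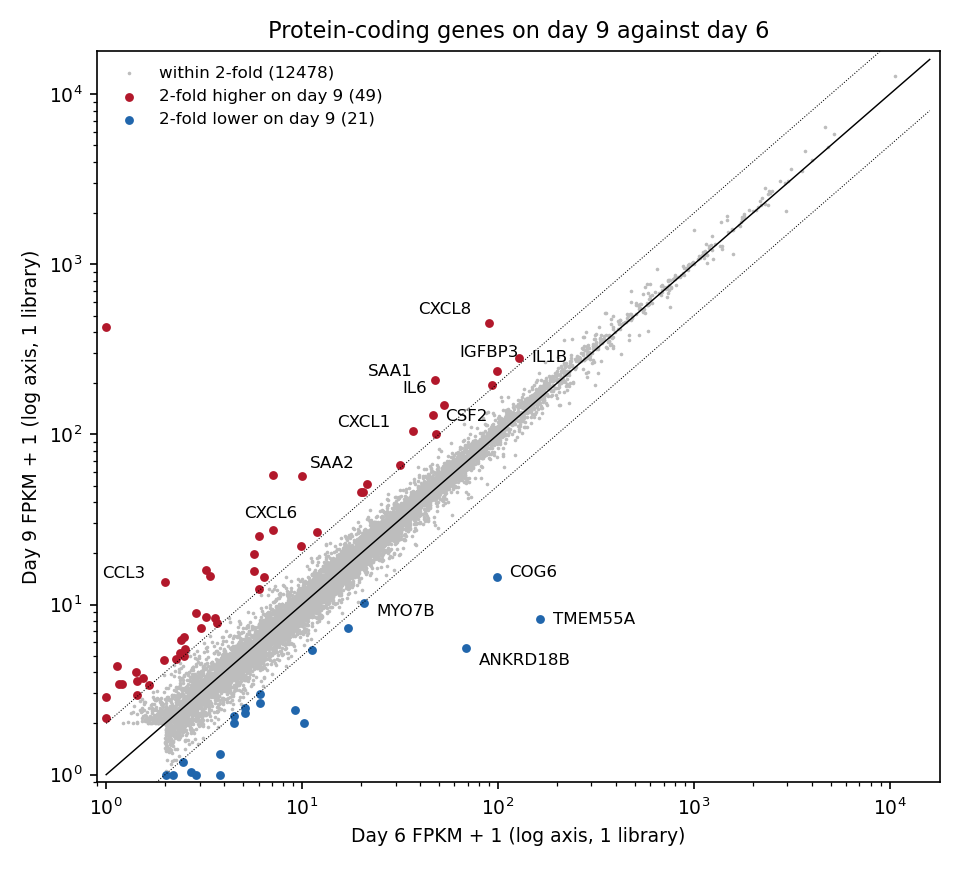
Each point is 1 of the 12548 kept mRNA genes, with its day 6 FPKM + 1 on the x axis and its day 9 FPKM + 1 on the y axis, both log scales and 1 library each. The solid line marks equal levels and the dotted lines a 2-fold difference, and the 49 genes that rose stand above a narrow diagonal band, with CXCL8 at 452 FPKM on day 9 as the highest named among them.

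Of the gene lists compared, chemokines had the most members past the limit. Of 16 kept chemokine genes, 9 rose and none fell, against 0.391% and 0.167% of all genes. The median ratio of the 16 was 1.14, and 15 of them lay above 0, or 14 under either other scaling of the libraries. CXCL8, which attracts neutrophils, had 3.02, 8.82, 89.1 and 452 FPKM, a late log2 ratio of 2.33. Its day 9 level was the highest of the list. CXCL1, a related neutrophil attractant, had 4.48, 11.5, 35.7 and 103 FPKM, a late ratio of 1.50. CXCL6 went from 6.15 FPKM on day 6 to 26.4 on day 9, a ratio of 1.94. CXCL2 went from 4.70 to 14.7 FPKM, a ratio of 1.46. These genes and CXCL3 and CXCL5, which rose by 1.25 each, belong to the CXC chemokines that bind the receptor CXCR2.

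CCL3, an attractant of monocytes, was listed at 0 at the start, followed by 0.177, 0.996 and 12.5 FPKM. Its ratio of 2.76 was the largest of the list. CCL3 has closely similar gene copies, as do CXCL1, CXCL2 and CXCL3 among themselves, and how shared fragments were divided is not given in the sources used here. CCL20, which attracts lymphocytes and dendritic cells, rose from 0.159 to 2.42 FPKM by the summed values, and its ratio of 1.56 was 0.97 without a transcript listed at 0 on day 6. CXCL10, an interferon-inducible attractant of T cells, rose from 5.04 to 11.4 FPKM.

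Not every chemokine moved in this way. CCL2, an attractant of monocytes, had 276 FPKM on day 6 and 313 on day 9, a ratio of 0.18, after 23.8 on day 0 and 117 on day 3. CXCL12, which retains haematopoietic cells in bone marrow, was the 1 member with a ratio below 0 (-0.62), at 31.8 FPKM on day 6 and 20.4 on day 9. Its highest level, 49.2 FPKM, was on day 3.

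**Figure D2:**
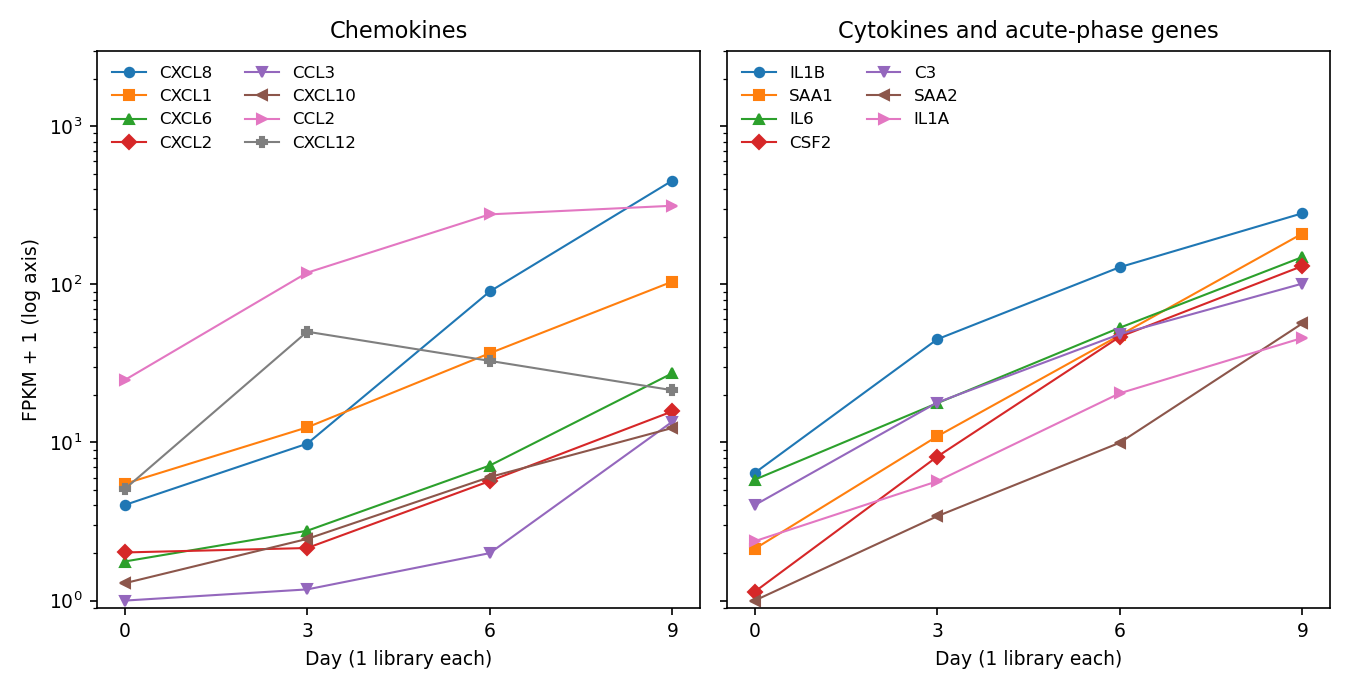
FPKM + 1 on a log axis against day, 1 library a day, for 8 chemokine genes (left) and 7 cytokine and acute-phase genes (right). CXCL8 climbs from 3.02 FPKM on day 0 to 452 on day 9, whereas CCL2 has 276 and 313 FPKM on days 6 and 9 and CXCL12 is highest on day 3.

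Among cytokines and growth factors of inflammation, 5 of 21 kept genes rose and none fell, against 0.391% and 0.167% of all genes. Their median ratio was 0.45, and 20 of the 21 lay above 0. IL1B, an activator of NF-kB, had 5.41, 43.9, 127 and 280 FPKM, a late ratio of 1.13. IL1A, which signals through the same receptor, had 1.37, 4.68, 19.5 and 44.8 FPKM, a ratio of 1.16. IL6, the main inducer of the acute-phase response, had 4.81, 16.7, 52.2 and 148 FPKM, a ratio of 1.48. For each of the 3 genes every later day stood above the one before.

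CSF2, the granulocyte and macrophage growth factor GM-CSF, had 0.137, 7.13, 45.6 and 130 FPKM, a ratio of 1.49. CSF3, the granulocyte growth factor, went from 0.425 to 3.00 FPKM, but its ratio of 1.49 was -0.02 without transcripts listed at 0 on 1 day. GDF15, a stress-induced member of the TGF-beta family and the highest of the list on day 9, had 578 FPKM on day 6 and 767 on day 9, a ratio of 0.41 that did not reach the limit. IL11, a cytokine of bone cells, was the 1 member below 0, with 17.8 FPKM on day 6 and 17.3 on day 9.

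Also among the 15 largest rises was SAA1, a serum amyloid protein of the acute phase, which had 1.12, 9.94, 46.7 and 208 FPKM, a ratio of 2.14. SAA2, its near-identical neighbour, was listed at 0 at the start, followed by 2.42, 8.96 and 55.6 FPKM. Because these copies can share fragments, the division of the signal between SAA1 and SAA2 is uncertain. C3, the central complement component, went from 47.4 to 100.1 FPKM, a ratio of 1.06. It was not among the 15 largest rises and was named after its values were seen.

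NF-kB pathway and feedback genes had 0 of 28 kept members past the limit, where 0.391% of all genes rose and 0.167% fell. Their median ratio was 0.23 and 23 lay above 0. The highest ratio was that of TNIP3, an inhibitor of the pathway, at 0.92, with 1.38 FPKM on day 6 and 3.51 on day 9. TNFAIP3, which encodes the feedback inhibitor A20, had 38.1 and 63.3 FPKM. SOD2, the mitochondrial superoxide dismutase and the highest of this list, had 350 FPKM on day 6 and 518 on day 9, a ratio of 0.56. NFKBIA, which encodes IkB-alpha, had 65.1 and 70.3 FPKM, and the subunit gene RELA had 51.9 and 56.7.

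To set the promoters of these genes side by side, an NF-kB-type motif, GGNNTTTCC on either strand, was searched in the 250 bases before the RefSeq start of each gene. The motif was chosen with the expression values known. Of the 31 genes that rose and have an entry in the promoter table used, 11 held it (35.5%), against 8.09% of the 10138 kept genes with an entry and 6.69% of all 27305 symbols of that table. Of 12 kept chemokine genes with an entry, 8 held it: CCL20, CXCL1, CXCL2, CXCL3, CXCL5, CXCL6, CXCL8 and CXCL10. All 8 are among the 9 chemokines that rose, so they are also among the 11 above. The rest of the 11 were IL6, UBD and U2AF1L4. Without transcripts listed at 0 on 1 of the 2 days, the ratio of U2AF1L4 was 0.21. The genes that rose were picked by these same values, and several are similar copies, so the shares only describe them. Of 14 collagen genes with an entry, 1 held it, as did 5 of 34 interferon-stimulated genes (14.7%). Of 26 NF-kB pathway and feedback genes with an entry, a list with no member past the limit, 14 held it (53.8%). A match describes letters in this window and is not a measured binding site.

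The 150 bases before the start are shown for 4 CXC chemokine genes, IL6 and CSF2, from GRCh38.p14 and 5′ to 3′ on the strand of the gene, with the motif in capitals. They are chr4:73740419-73740568 (plus strand) for CXCL8, chr4:73836528-73836677 (plus) for CXCL6, chr4:73869243-73869392 (plus) for CXCL1, chr4:74099196-74099345 (minus) for CXCL2, chr7:22727050-22727199 (plus) for IL6 and chr5:132073639-132073788 (plus) for CSF2.
CXCL8: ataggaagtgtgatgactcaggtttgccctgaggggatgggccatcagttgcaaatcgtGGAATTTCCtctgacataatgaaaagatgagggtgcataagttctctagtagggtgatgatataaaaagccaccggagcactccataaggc
CXCL6: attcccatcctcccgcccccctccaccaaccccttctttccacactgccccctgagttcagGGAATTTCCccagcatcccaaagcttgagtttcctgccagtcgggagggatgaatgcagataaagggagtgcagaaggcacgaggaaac
CXCL1: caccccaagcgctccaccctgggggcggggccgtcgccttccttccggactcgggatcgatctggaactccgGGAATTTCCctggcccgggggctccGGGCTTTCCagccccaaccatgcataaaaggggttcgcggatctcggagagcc
CXCL2: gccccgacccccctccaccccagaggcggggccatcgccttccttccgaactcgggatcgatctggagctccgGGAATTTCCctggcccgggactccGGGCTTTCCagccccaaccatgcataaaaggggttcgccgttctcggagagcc
IL6: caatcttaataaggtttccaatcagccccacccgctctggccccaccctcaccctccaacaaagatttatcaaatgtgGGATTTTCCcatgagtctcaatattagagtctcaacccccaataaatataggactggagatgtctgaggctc
CSF2: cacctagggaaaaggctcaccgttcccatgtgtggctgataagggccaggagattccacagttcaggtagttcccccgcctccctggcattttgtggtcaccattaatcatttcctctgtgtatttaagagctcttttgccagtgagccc
CXCL8 and CXCL6 hold the motif once, starting 91 and 89 bases before the gene, and IL6 holds it once, 72 bases before. CXCL1 and CXCL2 hold it at 2 places, the first starting 78 and 77 bases before the gene. The CXCL1 and CXCL2 stretches are similar copies of each other, so their matches are not separate instances. The letters do not occur in the CSF2 stretch, and sites with other letters were not searched for.

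Other named rises included protease inhibitors and matrix regulators. SERPINB2, an inhibitor of plasminogen activators, had 3.30, 0.649, 2.37 and 13.6 FPKM, a ratio of 2.12. SERPINA9, another serine protease inhibitor, went from 2.23 to 14.9 FPKM, a ratio of 2.30. TFPI2, an inhibitor of plasmin and other serine proteases, went from 19.1 to 45.0 FPKM, a ratio of 1.20. TIMP3, an inhibitor of metalloproteinases, had 41.9, 54.6, 92.5 and 195 FPKM, a late ratio of 1.07. SERPINB2 and TIMP3 were the members that rose among 27 kept matrix proteases and inhibitors (7.41%), against 0.391% of all genes. The median ratio of the 27 was -0.03.

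IGFBP3, a carrier of insulin-like growth factors, had 195, 93.9, 97.8 and 234 FPKM, a late ratio of 1.25. It was the 1 member past the limit of 15 kept genes of the IGF axis (6.67%), whose median was 0.10. Of all genes, 0.391% rose and 0.167% fell. SLC7A2, a transporter of arginine and lysine, had 4.27, 1.27, 4.70 and 18.8 FPKM, a ratio of 1.79. C15orf48, which encodes a small mitochondrial protein, went from 5.04 to 24.4 FPKM, a ratio of 2.07. MFAP5, a microfibril protein, rose from 1.52 to 4.44 FPKM. It was the 1 call among 29 kept matricellular and elastic fibre genes (3.45%), against the same shares of all genes. LCP1, an actin-bundling protein best known from leukocytes, had 7.81, 0.608, 1.89 and 7.89 FPKM, a ratio of 1.62.

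Beside these leukocyte-related genes, 1 of 10 macrophage and blood markers reached 1 FPKM on day 6 or 9. That gene was CD68, which also marks lysosomes in other cells, with 65.1 FPKM on day 6 and 90.6 on day 9. The summed level of the 10 was 67.7 and 92.6 FPKM, PTPRC (CD45) had 0.0441 and 0.441 FPKM, and CD163 was listed at 0 on both days. The part of other cells in the rises was not tested.

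The 2 largest entries of the mRNA table by ratio carried clone-based names. AL109927.1 had 425 FPKM in the day 9 library, from 1 transcript, and 0 in the others. As its sole transcript is listed at 0 in 3 libraries, no fold is given for it. AC007326.1 had 13.4, 13.2, 6.10 and 56.5 FPKM, a late ratio of 3.02, from 1 transcript that was above 0 in every library.

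Falls past the limit were fewer, and most rested on transcripts listed at 0 on 1 of the 2 days. TMEM55A, a phosphoinositide phosphatase, had 7.96, 6.81, 164 and 7.18 FPKM, a log2 ratio of -4.33. A single transcript, ENST00000630164, was listed at 157 FPKM on day 6 and at 0 on the other 3 days, and without it the ratio was 0.17. COG6, a subunit of a Golgi tethering complex, had 12.9, 12.2, 97.6 and 13.4 FPKM, with ENST00000630730 at 84.0 on day 6 and 0 on the other days. ANKRD18B, an ankyrin-repeat gene, had 31.7, 22.3, 67.7 and 4.55 FPKM, and its ratio of -3.63 was -0.31 without a transcript listed at 0 on day 9. In TMEM55A and COG6 the day 6 library stood apart from the other 3.

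The same held for most of the 21 genes that fell. In 16 of them the transcript with the largest difference was listed at 0 on 1 of the 2 days, and 5 still passed the limit when such transcripts were left out. Of the 10 falls with at least 5 FPKM on either day, the 1 that still passed was MYO7B, an unconventional myosin, which had 2.33, 19.1, 19.7 and 9.20 FPKM, a ratio of -1.02. CATSPER2, a subunit of a sperm ion channel, had a ratio of -2.33 with all transcripts and 0.34 without those listed at 0. GDPD3, a lysophospholipid-cleaving enzyme, gave -1.94 and -0.07, and DEPDC5, an inhibitor of amino acid signalling to mTORC1, gave -1.23 and -0.08. Of the 49 rises, by contrast, 41 still passed without such transcripts. Counted over the whole table without them, 42 genes rose and 7 fell. Whether a value of 0 is a true absence or a failed estimate cannot be told from the values.

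**Figure D3:**
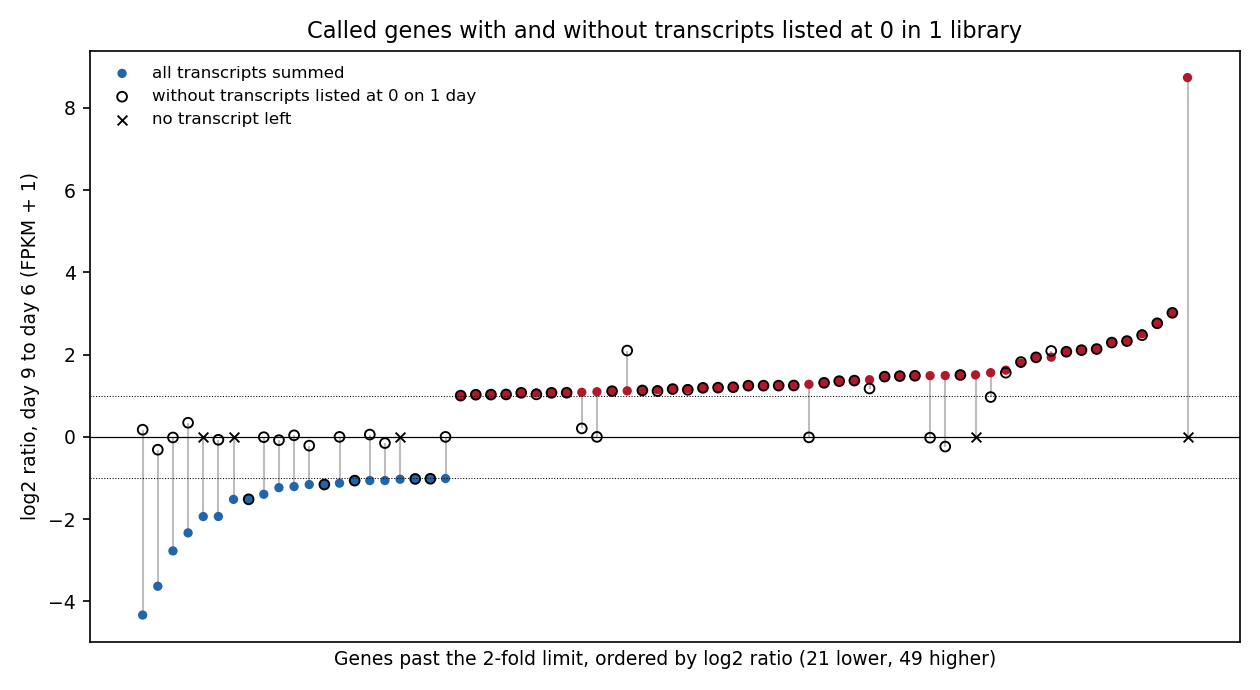
Each x position is 1 of the 70 mRNA genes past the 2-fold limit, with filled points (red for rises, blue for falls) for the log2 ratio over all transcripts and open points for the ratio without transcripts listed at 0 on 1 of the 2 days. Crosses at 0 mark genes with no transcript left. Open points of 41 of 49 rises stay past the dotted limit, but those of 5 of 21 falls do.

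Collagen genes were lower on day 9 than on day 6 as a group, each by less than 2-fold. None of 20 kept collagen genes passed the limit, against 0.391% of all genes that rose and 0.167% that fell. Of the 20, 1 had a ratio above 0, and the median was -0.38, against 0.01 over all genes. With equal FPKM sums and with centring the count above 0 was also 1. COL1A1, a chain of type I collagen, the main protein of bone matrix, had 777, 1974, 1587 and 1146 FPKM, a late ratio of -0.47. COL1A2, its partner chain, had 125, 856, 753 and 561 FPKM, a ratio of -0.43. Both chains stayed above their day 0 level.

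COL7A1, which forms anchoring fibrils, had the lowest ratio of the list at -0.78, with 86.6 FPKM on day 6 and 50.0 on day 9. COL5A1, a chain of type V collagen, had 312 and 195 FPKM, a ratio of -0.67. COL3A1, a chain of type III collagen, had 204 and 193 FPKM, a ratio of -0.08. COL8A2 was the 1 member above 0, with 1.40 and 1.97 FPKM. Enzymes that modify and crosslink collagen had a median of 0.00, with P4HB, a subunit of prolyl hydroxylase, at 633 and 689 FPKM. FN1, which encodes fibronectin, had 2014 FPKM on day 6 and 2053 on day 9. Small leucine-rich proteoglycans, which bind collagen fibrils, had a median of -0.22. None of 7 passed the limit, where 0.391% of all genes rose and 0.167% fell. BGN, which encodes biglycan, had 117 and 99.7 FPKM.

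Genes of mineralization and of the osteoblast lineage moved little, as did most genes. None of 17 kept mineralization and noncollagenous bone matrix genes passed the limit, where 0.391% of all genes rose and 0.167% fell. All 17 lay within 0.5 of 0, against 95.3% of all genes. SPARC, a collagen-binding glycoprotein and the highest of them, had 1351 FPKM on day 6 and 1275 on day 9. ALPL, the alkaline phosphatase that frees phosphate for mineral, had 0.294, 4.32, 4.35 and 4.18 FPKM. SPP1, which encodes osteopontin, had 5.14 and 7.45 FPKM on days 6 and 9, the highest ratio of the list at 0.46. BGLAP, which encodes osteocalcin, had 0.426 and 0.793 FPKM and was not among the kept genes.

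Of 23 kept osteoblast transcription factors none passed the limit, against 0.391% of all genes that rose and 0.167% that fell. Within 0.5 of 0 lay 22 of them, against 95.3% of all genes, and the median was -0.09. The exception was ETV1, an ETS-family factor, with 5.07 FPKM on day 6 and 3.14 on day 9, a ratio of -0.55. RUNX2, the master regulator of the lineage, had 7.37, 26.2, 19.3 and 18.2 FPKM, a late ratio of -0.08. PADI4, a peptidylarginine deiminase examined in the study, had 0.306, 6.33, 5.56 and 4.80 FPKM, a ratio of -0.18. DLG1, a scaffold protein and the host gene of a circular RNA of the study, had 151 FPKM on day 6 and 131 on day 9. GAPDH, a glycolytic enzyme, had 1724 and 1670 FPKM. None of RUNX2, PADI4, DLG1 and GAPDH moved by more than 0.20 on the log2 scale at this step.

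Interferon-stimulated genes were lower as a group. None of 43 passed the limit, at a step where 0.391% of all genes rose and 0.167% fell. The median ratio was -0.19, and 11 of the 43 lay above 0. Within 0.5 of 0 lay 37 of them, against 95.3% of all genes. At the step from day 3 to day 6, which shares the day 6 library, their median was -0.66. IFI44L had 20.9, 20.2, 5.37 and 2.75 FPKM, and its late ratio of -0.76 was the lowest of the list. IFITM1, a membrane protein that restricts virus entry, had 162, 264, 121 and 74.8 FPKM, a ratio of -0.69. OAS1, a sensor of double-stranded RNA, had 32.8, 42.4, 14.4 and 8.70 FPKM, a ratio of -0.67. IFI27, the highest of the list, had 1169 FPKM on day 6 and 1015 on day 9. IRF1, GBP1 and GBP2, which also respond to interferon gamma, were on the other side, with ratios of 0.23, 0.46 and 0.36. An ISRE-type motif, TTCNNTTTC on either strand, stood in the 250 bases before 23 of the 34 list genes with a promoter entry (67.6%), against 7.69% of the kept genes and 8.41% of all symbols of the table. Both motifs stood before 4 of these 34 genes. The ISRE-type motif also stood before 5 of the 31 genes that rose and have an entry (16.1%). Among chemokine genes with an entry it stood before 4 of 12 (33.3%).

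**Figure D4:**
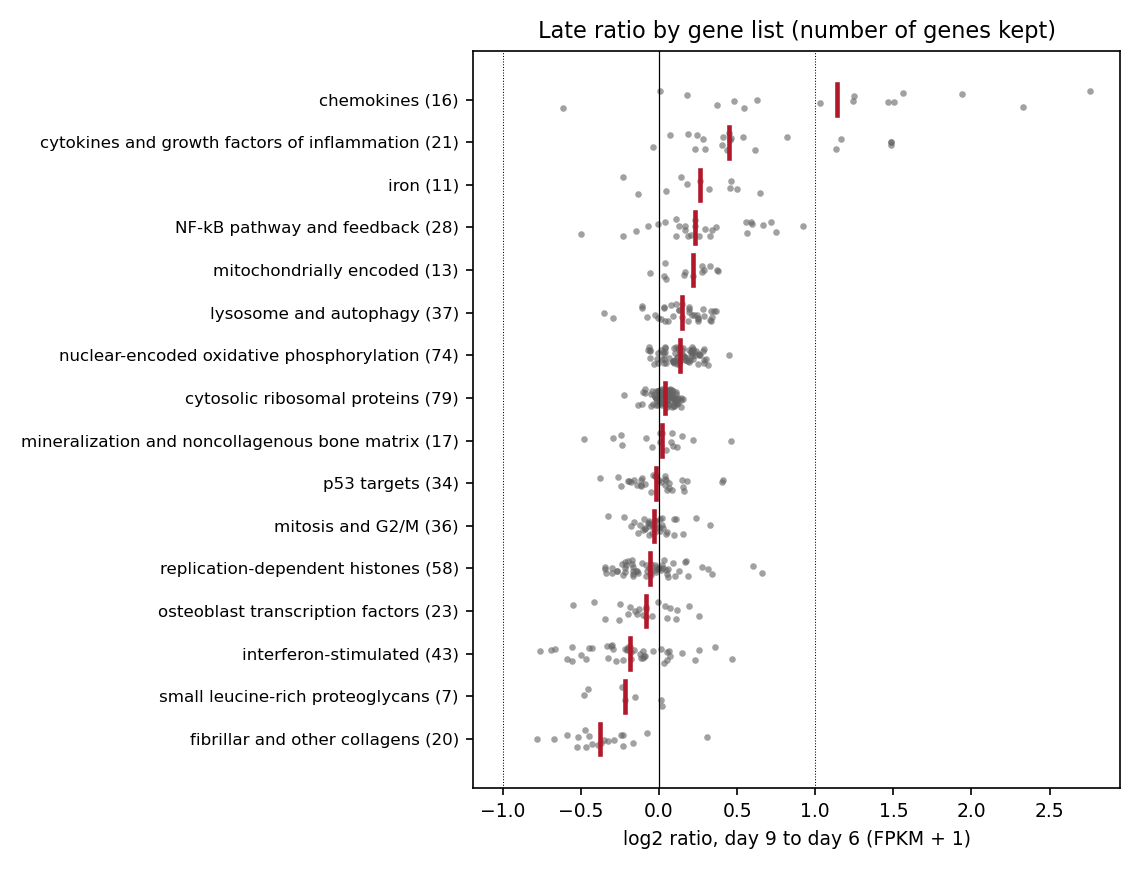
Each grey point is 1 kept gene of a list, with its log2 ratio of day 9 to day 6 on the x axis, and the red bar is the median of the list. Chemokines have a median of 1.14 and collagens of -0.38, while most other lists lie near 0, and the medians of the ribosomal and mineralization lists change sign when the libraries are scaled to equal FPKM sums.

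Mitochondrial genes lay slightly above 0 together. None of 74 kept nuclear genes of oxidative phosphorylation passed the limit, against 0.391% of all genes that rose and 0.167% that fell. Of the 74, 65 had a ratio above 0, and the median was 0.13. With equal FPKM sums 55 of the 74 lay above 0 and the median was 0.07. Of the 13 mRNAs encoded in mitochondrial DNA, 12 lay above 0, with a median of 0.22 and a sum of 41408 FPKM on day 6 and 47817 on day 9. With equal FPKM sums 9 of the 13 lay above 0 and the median was 0.15. Of all 12548 genes, 6672 lay above 0. Lysosome and autophagy genes had a median of 0.15, with 30 of 37 above 0, and CTSB, a lysosomal protease, had 479 and 603 FPKM. Iron genes had a median of 0.26, and FTH1, the heavy chain of ferritin, had 1263, 2783, 4691 and 6418 FPKM. MT2A, a metal-binding metallothionein, had 307, 566, 999 and 1581 FPKM, a late ratio of 0.66. Each of these 2 genes stood higher on every later day, and neither reached the limit at this step.

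Genes of proliferation and arrest also had no member past the limit, at a step where 0.391% of all genes rose and 0.167% fell. Of 36 mitosis genes, 43 DNA replication genes, 58 replication-dependent histone genes and 34 p53 targets, all kept, the medians were -0.03, 0.03, -0.06 and -0.02. The median of the replication genes was -0.03 with equal FPKM sums. PLK1, a mitotic kinase, had 130, 8.02, 6.19 and 8.03 FPKM. CDKN1A, which encodes the cell cycle inhibitor p21, had 74.7, 1524, 1391 and 1283 FPKM. Of 79 ribosomal protein genes none passed the limit, with a median of 0.04 that was -0.03 with equal sums.

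To follow genes that changed early, those 2-fold changed from day 0 to day 3 were taken among the kept genes. There were 1024 that rose early (8.16%) and 655 that fell early (5.22%), and the libraries of days 0 and 3 are not used in the late ratio. Of the early rises, 915 (89.4%) lay within 0.5 of 0 from day 6 to day 9, and of the early falls 611 (93.3%), against 95.3% of all genes. Together, 1526 of the 1679 early changed genes had levelled off by this measure. A ratio within 0.5 at the day 3 to day 6 step as well was found for 793 of the early rises (77.4%). It was found for 558 of the early falls (85.2%). Both shares are below the 90.9% of all kept genes.

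Levelled genes had settled at various heights. INPP5D, an inositol phosphatase, had 1.15 FPKM on day 0 and then 67.1, 68.1 and 65.4. SULF2, a sulfatase of heparan sulfate, had 2.85 FPKM on day 0 and then 60.7, 69.9 and 78.1. RBM3, a cold-inducible RNA-binding protein, had 272 FPKM on day 0 and then 9.21, 8.35 and 8.32. By contrast, TENM4, a transmembrane teneurin, was at 170 FPKM on day 3 but at 1.38, 8.12 and 8.45 on days 0, 6 and 9. Its late plateau thus lay far below its day 3 value. The transcripts behind this day 3 value were not examined, because transcripts listed at 0 were checked on days 6 and 9 only.

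A small number of early changed genes moved again. Of the 1024 early rises, 14 rose late (1.37%) and 3 fell, and of the 655 early falls, 9 rose late (1.37%) and 3 fell. Among genes with no early call, 26 of 10869 rose late (0.239%) and 15 fell (0.138%). Counted from the 49 late rises, 28.6% had risen early and 18.4% had fallen early. On day 9, 46 of the 49 stood above their day 0 level and 44 had their highest level of the 4 days. The 49 were picked by a day 9 level above that of day 6, which favours both counts.

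Genes that fell early and rose late ended on day 9 below, near or above their day 0 level. NPPB, which encodes a natriuretic peptide, had 44.7, 6.12, 5.36 and 13.5 FPKM, and so stayed below day 0. MCTP1, a calcium-binding membrane protein, had 4.38, 1.68, 8.86 and 21.2 FPKM, and was already above its day 0 level on day 6. LCP1 and IGFBP3, described above, ended at 7.89 and 234 FPKM. ANKRD1, an ankyrin-repeat protein induced by mechanical load, had 33.4, 26.3, 30.5 and 65.3 FPKM, and its late ratio of 1.07 was its 1 change past the limit. EHF, an ETS-family transcription factor, had 0.0624, 1.28, 2.25 and 7.50 FPKM, and rose both early and late.

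**Figure D5:**
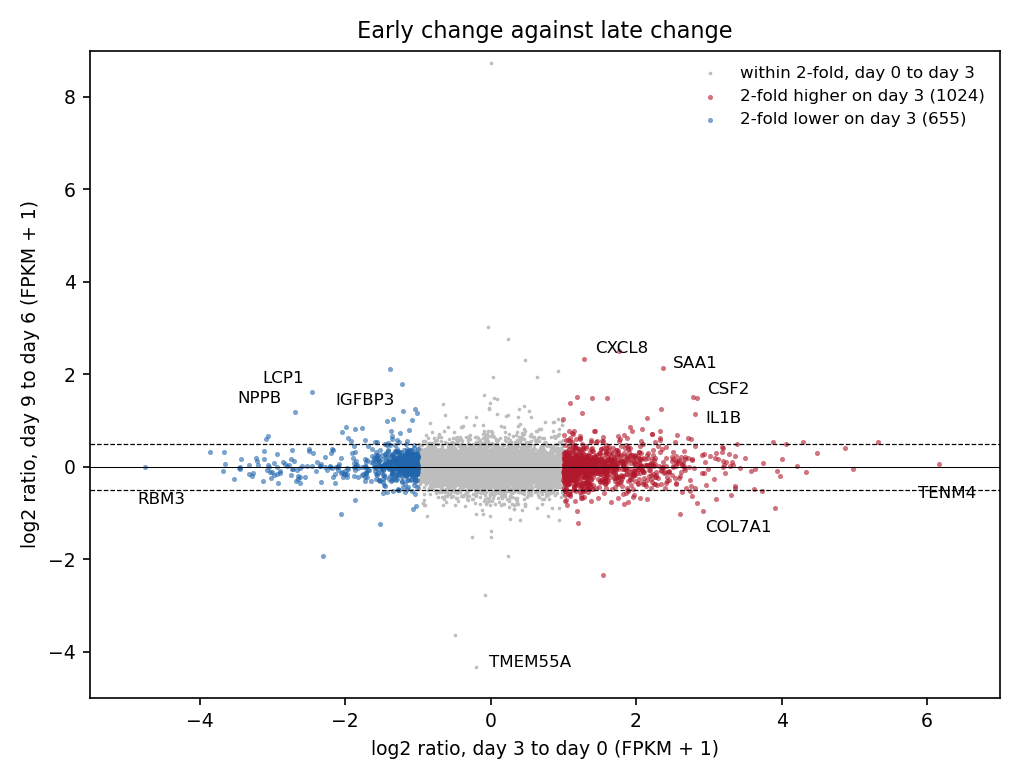
Each point is 1 of the 12548 kept mRNA genes, with its log2 ratio of day 3 to day 0 on the x axis and of day 9 to day 6 on the y axis, red and blue for early rises and falls. The dashed lines mark 0.5 and -0.5, between which 1526 of the 1679 early changed genes lie, while CXCL8, SAA1, CSF2 and IL1B stand above on the right.

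The lncRNA table was more scattered than the mRNA table and leaned to lower values. Of 2035 kept lncRNA symbols, 76 rose (3.73%) and 98 fell (4.82%), and 71.1% lay within 0.5 of 0. The median ratio was -0.17, and with the ratios centred on it 90 rose and 67 fell. A gene listed at 0 on 1 of the 2 days made up 46 of the 76 rises and 55 of the 98 falls. With at least 1 FPKM required on both days, 21 rose and 13 fell.

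Of 38 kept lncRNAs from a list of well-known names, 1 rose and none fell, against 3.73% and 4.82% of all kept lncRNA symbols. The median was -0.14, or 0.03 after centring. MIR100HG, the host of a microRNA cluster, was listed at 0 at the start, followed by 1.61, 2.41 and 8.68 FPKM, a ratio of 1.51. MALAT1, an abundant nuclear RNA, had 2780, 6940, 5652 and 4040 FPKM, a late ratio of -0.48. NEAT1, the scaffold of paraspeckles, had 404, 840, 720 and 364 FPKM, and its ratio of -0.98 lay just short of the limit. MEG3, an imprinted lncRNA, had 576 and 399 FPKM on days 6 and 9, a ratio of -0.53. NEAT1 was also below its day 0 level on day 9, unlike MALAT1 and MEG3.

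Some other large lncRNA ratios rested on values of 0. Of 20 rises with at least 5 FPKM on either day, 15 still passed the limit without transcripts listed at 0 on 1 day. Of 15 such falls, 7 did. PTCSC2 had 0, 32.6, 17.1 and 0 FPKM. CDC37L1-AS1, antisense to CDC37L1, went from 0.856 to 9.13 FPKM, a ratio of 2.45 that was -0.43 without transcripts listed at 0 on 1 day. RN7SKP179, RN7SL552P and RN7SL587P are pseudogene copies of small abundant RNAs, and their values are uncertain because near-identical copies share fragments. Whether strand was used in counting is not given in the sources used here, so an antisense gene and its partner cannot be told apart.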

How the data were processed

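RNA of hFOB1.19 cells on days 0, 3, 6 and 9 was sequenced, 1 library a day. Total RNA was depleted of rRNA, a directional kit was used, and RNase R, which digests linear RNA, is named for the mRNA libraries, while the circular RNA libraries are said to lack it. If it was used so, the mRNA values would be of RNA that resisted it, and this could not be settled from the values. The authors aligned paired reads with TopHat. The submitters' notes name Bowtie 0.12.2 and a mouse build (mm8), although the transcript identifiers are human. The program behind the FPKM values is not given in the sources used here. The authors deposited FPKM per transcript, without counts, for 79798 mRNA and 4583 lncRNA transcripts. Tables of the authors' own comparisons hold fold changes and p-values and were not used, nor were circular RNA counts.

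FPKM was summed per symbol with pandas 2.3.3 (Python 3.11.15), symbols with at least 1 FPKM on day 6 or 9 were kept, and log2((day 9 + 1)/(day 6 + 1)) was computed. The added 1 FPKM understates the change of low genes. With 1 library a day there was no test and no p-value. A limit of 2-fold was used, and levelled off means within 0.5. The calculation was run on simulated data with planted changes larger than the limit. This checks the arithmetic only, as the noise of these libraries and transcripts listed at 0 were not simulated. Genes were named by rule: the 15 largest rises and falls with at least 5 FPKM, 6 of each for lncRNAs, up to 6 past the limit in each of 49 gene lists plus the highest on day 9, the largest changes by early and late class, and genes of the study. Other members of the lists were named after their values were seen, clone-named lncRNAs were counted and not printed, and the lists and members were chosen with earlier results of these data known. Promoter sequences are from RefSeq (GRCh38.p14), matched by symbol or Ensembl gene ID. Alternatives were another pseudocount, minimum level, scaling, limit and unit of counting.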

Additional observations from a re-analysis of the deposited data

How the results depend on the processing

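Of the mRNA counts (49 higher, 21 lower), 0.1 FPKM added in place of 1 gave 108 and 86, a minimum of 5 FPKM on either day 34 and 10, counting per transcript 1260 and 1091, and a 4-fold limit 9 and 4. Leaving out transcripts listed at 0 on 1 of the 2 days, chosen after seeing the data, gave 42 and 7, and a pseudocount of 0.1 with at least 5 FPKM, also added later, 39 and 13. For lncRNAs (76 and 98) the same 6 settings gave 130 and 250, 20 and 15, 111 and 136, 9 and 13, 26 and 39, and 22 and 22, and at least 1 FPKM on both days gave 21 and 13. The levelled count of 1526 ranged from 1159, with a limit of 0.25, to 1935, with 0.1 FPKM added. Without transcripts listed at 0 on 1 of the 2 days the ratios of CATSPER2 (0.34), CDAN1 (0.057), LRRC4C (0.038), TMEM55A (0.17), CSF3 (-0.020) and CDC37L1-AS1 (-0.43) changed sign. These genes had passed the limit with all transcripts. Of 437 values of named genes under alternatives, 424 kept their side of the limit, 7 were weaker and 6 reversed. Genes left with no transcript once those listed at 0 were taken out, such as AL109927.1, have no value there and are not counted. The named genes also include many that lay within the limit from the start. Some ratios near 0, such as those of FN1 and PCNA with equal FPKM sums, changed sign and still count among the 424. The medians of 12 of 48 lists changed sign under another scaling of the libraries. The cause of these changes was not tested. No paired analysis was possible because each day has 1 library. The lack of replicates limits every value, as does the lack of counts per gene.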
